A study of Macaca mulatta with 144 samples.

Results

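The miRNAs described here are those with a high registry number, the later annotated entries of the rhesus macaque miRNA catalogue. They were taken from the raw count table as every row with at least 1 count over all 144 libraries and a miRNA number of at least 1000, leaving out miR-1185, miR-1193 and miR-1197, which belong to a large miRNA cluster on the DLK1-DIO3 locus. This rule gave 102 miRNAs of the 626 with a count. The table listed 198 such high-numbered miRNAs, of which 96 had no count in any library. The members were thus chosen by their total counts in these libraries, and their totals and detection are given as a description without a test. The lowest number among them was miR-1180, whose 3p arm had 2546 counts and whose 5p arm had 3. The highest was miR-7206-3p, with 61 counts in 28 libraries. The highest detected number below 1000 was miR-942, with 2721 counts of its 5p arm in 123 libraries and 41 counts of its 3p arm in 18.

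MiRNA genes are numbered in the order in which they are registered, so the low numbers hold the abundant and deeply conserved families found first by cloning, and the high numbers hold mostly entries found later by deep sequencing. A miRNA hairpin is cut by Drosha and Dicer to a short duplex, from which usually a single strand, named 5p or 3p after its arm, is kept by an Argonaute protein to guide the silencing of mRNAs. Mirtrons are an exception, short introns released by splicing that enter the pathway without Drosha. Serum miRNAs come from blood cells, endothelium and organs, and red cells, which hold much miR-486-5p, miR-451 and miR-16-5p, give a large share.

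Serum was drawn from 36 naïve rhesus NHPs (19 males and 17 females, Chinese sub-strain) that received TBI with cobalt gamma rays, 6 animals at each of 6 radiation doses (RD) from 6.0 to 8.5 Gy in steps of 0.5 Gy. Each animal was sampled 4 days before irradiation (day -4, pre-irradiation) and again on day 1, day 2 and day 6 after TBI, which gave 144 small RNA libraries, 36 at each time since irradiation (TSI). No group was left unirradiated, so the pre-irradiation samples served as the control. The main tests compared time points without pairing by animal. A change over time without radiation cannot be told apart from a change after it. All animals had full supportive care, 15 survived and 21 did not, and animal ages are not used here. In serum, less RNA per source cell and fewer source cells cannot be told apart.

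Library totals ran from 11174 to 4118401 counts (median 280254.5), so that 1 count stood for 3.57 CPM (counts scaled to a common library size) in the median library and for 89.5 CPM in the smallest. Red-cell miRNAs (miR-486-5p, miR-451, miR-144, miR-16-5p and miR-92a-3p) took 46.5% to 98.3% of the counts of a library, with a median of 79.1%, and miR-486-5p alone had a median of 71.7%. The TMM scaling factors, which correct CPM for such composition, ran from 0.0907 to 3.91 and were under 0.25 in 11 libraries. The pre-irradiation library of RA2265F and the day 1 library of RA2694M held identical values (82153 counts each), so at least 1 of them does not match its label. Each test was also run without both, and no call among these miRNAs changed. The description of the pre-irradiation library of RA2816M names animal RA2616M, and its title was followed here.

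High-numbered miRNAs were a small part of the serum miRNA pool. Together they held 187207 of 71861288 counts, or 0.261%. Their median total was 17 counts, against 261.5 for the 522 detected miRNAs numbered below 1000. Of the high-numbered miRNAs listed, 51.5% had any count, against 73.7% of those below 1000. A count in at least 40% of libraries (58 of 144), the filter for testing, was reached by 13 of 102 members (12.7%) and by 276 of 522 lower numbers (52.9%), within 290 miRNAs tested in all. The other 89 members held 2439 counts, 1.30% of the members' total. Among all 102, 18 had a single count, 23 had 2 to 10, 42 had 11 to 100 and 19 had more than 100. A total of 22 members were seen in 1 library only, and 52 in 10 or fewer. Just outside the filter were miR-4766-3p and miR-3200-3p, each in 52 libraries, and just inside it was miR-1296-5p, in 61.

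**Figure D1:**
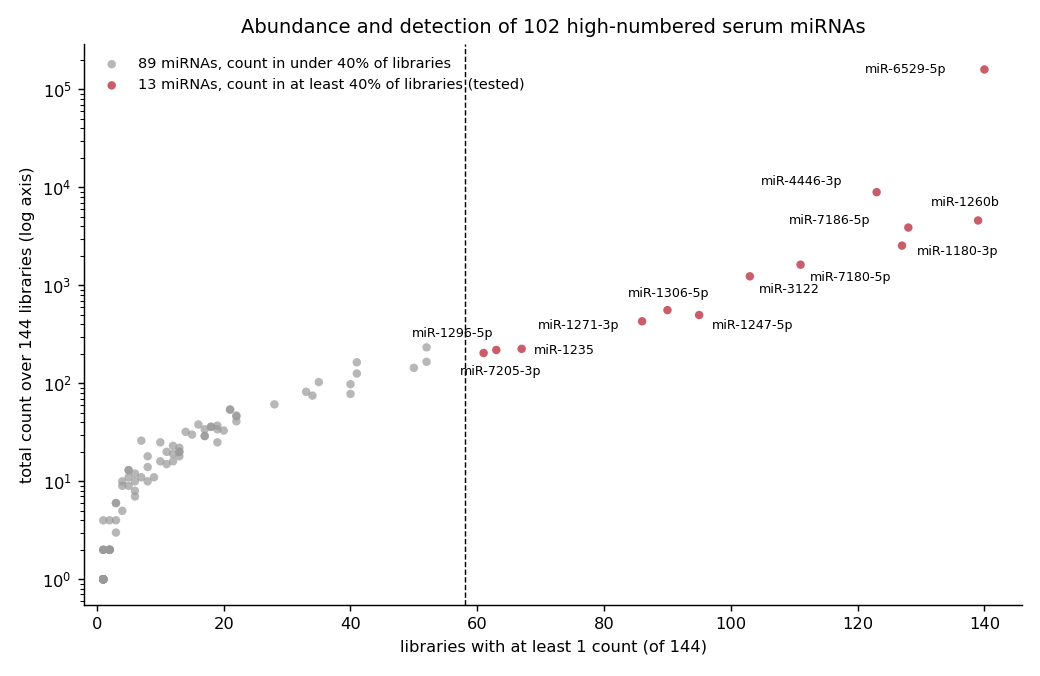
Each point is 1 of the 102 high-numbered miRNAs, placed by the number of libraries with at least 1 count (of 144) and by its total count over all libraries (log axis). The 13 tested miRNAs (red) lie right of the dashed line at 58 libraries, and miR-6529-5p, with 159800 counts in 140 libraries, stands far above the others.

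By number, the 7000s were the most numerous block and the 6000s held the counts. The 1000s had 33 members of 50 listed, 7 of them tested, and 10016 counts. The 7000s had 36 members of 92 listed, 3 tested, and 6427 counts. The 6000s had 9 members of 18 listed and 159902 counts, nearly all from miR-6529-5p. The 4000s (11 of 16 listed) held 9320 counts, 8937 of them from miR-4446-3p, and the 3000s (10 of 19) held 1484, 1237 of them from miR-3122.

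The share of a library taken by all members ran from 0% to 1.20%, with a median of 0.179%. Pre-irradiation libraries had a median of 0.245%, against 0.133% on day 1, 0.160% on day 2 and 0.168% on day 6, with ranges that overlapped widely. These shares moved mostly with miR-6529-5p (median 0.153%, highest 1.14%), while all other members together took 0% to 0.0978% (median 0.0302%). Between 0 and 44 members were counted per library (median 15). The number of members per library followed depth, with a Pearson r of 0.731 with log10 of the library total over 144 libraries, which is a description since animals gave several libraries each. The raw medians were 18 in pre-irradiation libraries and 13, 16.5 and 13 on the later days in order. At an even depth of 11000 counts the expected number of members had medians of 3.70, 3.58, 3.36 and 3.41. So few members are expected at this depth that rare ones hardly enter, and the part of depth in the raw medians was not tested. By animal, the median share over its libraries was lowest in RA0724F (0.0397%) and highest in RA2580M (0.758%).

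miR-6529-5p was the most abundant member by a wide margin, with 159800 counts in 140 libraries, 85.4% of all member counts. Its TMM-scaled level had a median of 1278 CPM and a maximum of 7822 CPM. Before irradiation it ran from 582 to 7392 CPM (median 1446). On day 1 the median was 1073 CPM (highest 7822), on day 2 it was 1222 CPM (highest 3626) and on day 6 it was 1421 CPM (highest 3594). The groups overlapped, and of the 36 animals 25 were below their own pre-irradiation value on day 1, 26 on day 2 and 22 on day 6. Its gene lies within GSK3B, which codes for a kinase of the Wnt and insulin pathways. Over all 4 samples of an animal its level ran from 1035 CPM in RA2691M over a median of 1805 CPM to 3784 CPM in RA2318M, 2.10 times the median, and differences between animals did not pass (edgeR adjusted p = 0.232).

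In 32 of 36 animals it was counted in all 4 libraries, and it had 0 counts in 4 libraries. In 3 of them the library was small, with 14330 counts for RA2116F on day 2, 24458 for RA2445M on day 6 and 19254 for RA2743F on day 6. The day 1 library of RA2733F, in contrast, held 236317 counts, where 0 counts allows a share of up to 0.00127% (3 counts, counting error only). The other libraries of that animal held 0.350% (pre-irradiation), 0.139% (day 2) and 0.102% (day 6). That library held counts of only 2 members in all, and whether it matches its label was not tested.

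The next most abundant members were miR-4446-3p, with 8937 counts in 123 libraries and a median of 57.0 CPM (highest 278), and miR-1260b, with 4596 counts in 139 libraries and a median of 31.9 CPM (highest 1432). miR-1260b therefore was found in nearly as many libraries as miR-6529-5p at a far lower level. In human, miR-1260b resembles a tRNA fragment, so its counts could include reads of another small RNA, which was not tested. miR-7186-5p (3891 counts, 128 libraries, median 37.4 CPM), miR-1180-3p (2546 counts, 127 libraries, median 21.0 CPM) and miR-7180-5p (1626 counts, 111 libraries, median 15.2 CPM) followed. miR-3122 had 1237 counts in 103 libraries (median 9.19 CPM). The lower members were near the limit of detection in the median library. miR-1306-5p had 559 counts in 90 libraries, miR-1247-5p 498 in 95 and miR-1271-3p 430 in 86, with medians of 3.10, 3.62 and 2.37 CPM. For miR-1235 (225 counts, 67 libraries), miR-7205-3p (219, 63) and miR-1296-5p (204, 61) the median library had no count.

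Most of the abundant hairpins gave nearly all of their counts from 1 arm. The members came from 75 hairpins, of which 49 were listed with both arms, and both arms were counted in 27 of these and 1 arm in 22. Among the 20 with both arms counted and at least 20 counts, the 5p arm was higher in 14 and the 3p arm in 6. The higher arm held a median of 91.9% and in 11 hairpins over 90%. Left out of these 20 were hairpins with at least 20 counts from 1 arm only. Of these, miR-3200 (166 counts), miR-7206 (61), miR-4796 (41) and miR-1262 (36) gave the 3p arm and miR-7188 (32) the 5p arm. miR-6529 had 159800 counts from its 5p arm and 34 from its 3p arm, miR-7186 had 3891 and 11, and miR-4446 had 8937 from the 3p and 10 from the 5p arm. miR-1180 gave 2546 counts from the 3p arm against 3, and miR-7205 gave 219 against 1. miR-1247, miR-1306 and miR-1296 kept the 5p arm, with 498 against 8, 559 against 12 and 204 against 6 counts.

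Less one-sided hairpins were also found. miR-7180 had 91.9% of its counts on the 5p arm (1626 against 144, 95% Wilson interval 90.5% to 93.0%, counting error only). miR-1271, whose 5p strand shares its seed with miR-96, had 80.7% on the 3p arm (430 against 103, 77.1% to 83.8%). The hairpins miR-7204 (34 and 23 counts) and miR-1224 (30 and 26 counts) had intervals that spanned 50%, so no preferred arm was detectable at this depth. Mature sequences of these strands are not printed here.

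**Figure D2:**
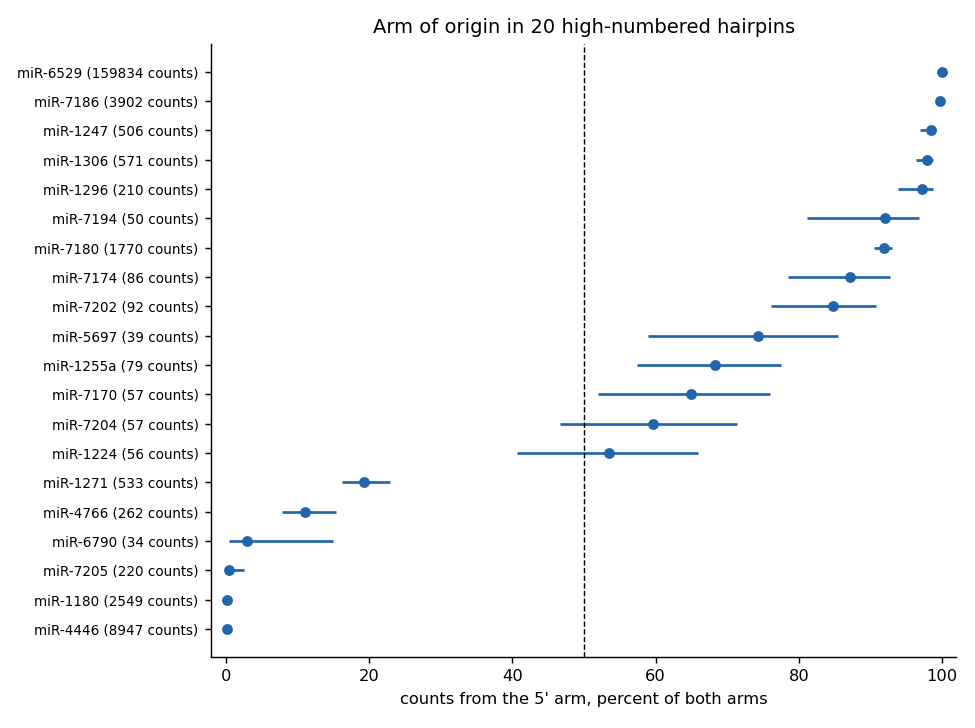
Share of a hairpin's counts that came from its 5p arm (percent of both arms, summed over 144 libraries) for the 20 high-numbered hairpins with both arms counted and at least 20 counts; bars are 95% Wilson intervals for counting error and the dashed line marks 50%. The 5p arm led in 14 and the 3p arm in 6, and only miR-7204 and miR-1224 had intervals across the line.

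High-numbered hairpins lay mostly alone within protein-coding genes. In RefSeq's table of the macaque assembly T2T-MMU8v2.0, used for names and neighbours because the authors' build is not given in the sources used here, 70 of the 75 hairpins matched a gene. Of these 61 (87.1%) lay within the span of a protein-coding gene, strand not considered, against 190 of 340 (55.9%) matched hairpins numbered below 1000. Only 6 (8.57%) had another miRNA gene within 50 kb, against 209 (61.5%) of the lower numbers. The 6 were miR-1298, miR-7167, miR-7164, miR-7181, miR-1230 and miR-1283, which sits in the large primate miR-515 cluster. The rule left out miR-1185, miR-1193 and miR-1197 of the DLK1-DIO3 cluster, while its lower numbers stayed in the comparison. This contrast is therefore partly set by the rule.

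Among the 13 tested members, 11 matched the table and 9 lay in protein-coding genes. Besides GSK3B these were SIDT1, a family member of which moves double-stranded RNA in nematodes, for miR-4446-3p, the Notch coactivator gene MAML2 for miR-1260b, and the ciliary gene B9D1 for miR-1180-3p. The remaining hosts were DTL, an adaptor of a DNA damage ubiquitin ligase, for miR-3122, EFCAB2 for miR-7180-5p, ARL10 for miR-1271-3p, the mitochondrial outer membrane gene SAMM50 for miR-7205-3p, and JMJD1C, of a family of histone demethylases, for miR-1296-5p. The genes of miR-7186-5p and miR-1247-5p lay in no protein-coding gene, and MIR1247 was the direct neighbour of DIO3. The hairpins of miR-1306-5p and miR-1235 were unmatched. In human, MIR1306 lies in DGCR8, the gene of Drosha's partner.

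Of 10 strands named by the study, most of which it chose on these samples (miR-1306-3p it lists from minipigs), 9 were listed, all 9 had counts (19019 in sum) and 8 passed the filter. They were miR-1180-3p, miR-1247-5p, miR-1260b, miR-1271-3p, miR-1296-5p, miR-1306-5p, miR-3122 and miR-4446-3p, besides miR-1306-3p with 12 counts in 6 libraries. The mirtron list had 11 rows, 7 with a count and 418 counts in sum, and only miR-1235 was tested. The other mirtrons with a count were miR-1226 (54), miR-1233 (38), miR-1224-5p (30), miR-1224-3p (26), miR-1234 (25) and miR-1240 (20). Of 4 listed strands from the cluster within the serotonin receptor gene HTR2C, only miR-1298-5p was counted, with 9 counts in 4 libraries. The miR-1185 strands that the rule left out had 1443 counts in 105 libraries (3p) and 72 in 26 (5p).

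The 89 members below the filter were seen a few counts at a time. At least 1 count was present at all 4 time points for 41 of them, at 3 for 13, at 2 for 12 and at only 1 for 23. Before irradiation 72 of the 89 were seen, with 849 counts, against 64 and 540 on day 1, 56 and 516 on day 2, and 58 and 534 on day 6. The median library total was also higher before irradiation (363826 counts) than on day 1 (286145), day 2 (295548) and day 6 (204734.5), and the part of depth in this difference was not tested. The largest totals were those of miR-4766-3p (233 counts), miR-3200-3p (166), miR-1249 (164), miR-7180-3p (144), miR-1304 (126) and miR-1271-5p (103). After these came miR-1284 (98), miR-1255b (82), miR-7202-5p (78) and miR-7174-5p (75).

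Some rare members leaned on 1 library. miR-1249 had 29, 22, 34 and 79 counts at the 4 time points in order, but 43 of the 79 on day 6 came from RA1782F alone, a library of 1840802 counts. miR-1234 had 9 of its 25 counts in RA2742F before irradiation (36.0%), miR-1224-3p had 7 of 26 in RA1782F on day 6 (26.9%) and miR-6529-3p had 9 of 34 in RA0456F before irradiation. A different course was seen for miR-1271-5p, with 12, 29, 42 and 20 counts, of which no library gave more than 14. These members were not tested in the main comparisons.

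The first question was whether the level of these miRNAs changed after TBI. On day 1 against pre-irradiation, 2 of 13 tested members rose and none of the 13 fell by edgeR's quasi-likelihood F test (adjusted p under 0.05 over 290 miRNAs, 36 animals at each time), where 4.83% of all tested miRNAs rose, 1.72% fell and 6.55% were called in either direction. miR-1247-5p ran from 0 to 76.2 CPM before irradiation (median 2.90) and from 0 to 309.5 CPM on day 1 (median 5.88), and 19 animals were higher, 12 lower and 5 equal. The fitted rise was 1.55 on the log2 scale (SE 0.47, edgeR adjusted p = 0.0325). The highest value on day 1 was 18 counts in RA2445M at 6.0 Gy, a library with a TMM factor of 0.316. The groups overlapped over most of their range.

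miR-1271-3p ran from 0 to 15.02 CPM before irradiation (median 2.23) and from 0 to 33.1 CPM on day 1 (median 3.05). It was higher in 20 animals, lower in 11 and equal in 5, and its fitted rise was 1.01 on the log2 scale (SE 0.34, edgeR adjusted p = 0.0492). The distributions overlapped, and both miRNAs had a median of 1 to 2 counts per library. Both calls were lost with the animal as a block in edgeR (1.15 and 0.98, adjusted p = 0.112 for each) and under scaling to library totals (1.20 and 1.07, adjusted p = 0.289 and 0.358). The miR-1247-5p call was lost without any 1 of 9 of the 36 animals, with the highest adjusted p without RA2445M (0.95, edgeR adjusted p = 0.298), and the miR-1271-3p call without any 1 of 25, with the highest adjusted p, 0.160, without RA2580M.

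The abundant members did not pass on day 1. miR-4446-3p had a median of 74.8 CPM before irradiation and 46.2 CPM on day 1, lower in 26 of 36 animals (log2 fold change -0.74, SE 0.29, edgeR adjusted p = 0.122). For miR-6529-5p the value was -0.51 (SE 0.24, adjusted p = 0.273). Without adjustment, 4 of 13 members had p under 0.05, where 13.4% of all miRNAs did. At the 4 times in order, lymphocyte miRNAs (miR-150, miR-342 and miR-155) had median shares of 0.223%, 0.131%, 0.101% and 0.0791% of counts and red-cell miRNAs of 75.6%, 80.2%, 79.1% and 78.1%, and the part of either in these values was not tested.

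On day 2 no member was called (0.69% of all miRNAs were), none had an unadjusted p under 0.05 in edgeR and none was called by DESeq2 (11% of all miRNAs had an unadjusted p under 0.05). The smallest p values were those of miR-4446-3p (log2 fold change -0.57, SE 0.29, adjusted p = 0.447, lower in 27 of 36 animals), miR-6529-5p (-0.47, SE 0.24, adjusted p = 0.447) and miR-7186-5p (-0.28, SE 0.26, adjusted p = 0.664). On day 6 again none was called by edgeR or DESeq2, where edgeR called 4.83% of all miRNAs higher and 1.72% lower (6.55% in either direction), and 1 member had an unadjusted p under 0.05 (19.7% of all). This was miR-1306-5p, which ran from 0 to 90.2 CPM before irradiation (median 2.90) and from 0 to 257 CPM on day 6 (median 4.04), with 16 animals higher, 13 lower and 7 equal. The fitted value was 1.40 on the log2 scale (SE 0.51, edgeR adjusted p = 0.0702), and 89 of its 183 counts on day 6 came from RA0724F. It passed when RA2257F (1.67, adjusted p = 0.0357) or RA2267F (1.54, adjusted p = 0.0403) was left out. miR-1180-3p had 0.47 (SE 0.31, adjusted p = 0.400) and miR-6529-5p had -0.38 (SE 0.24, adjusted p = 0.383).

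**Figure D3:**
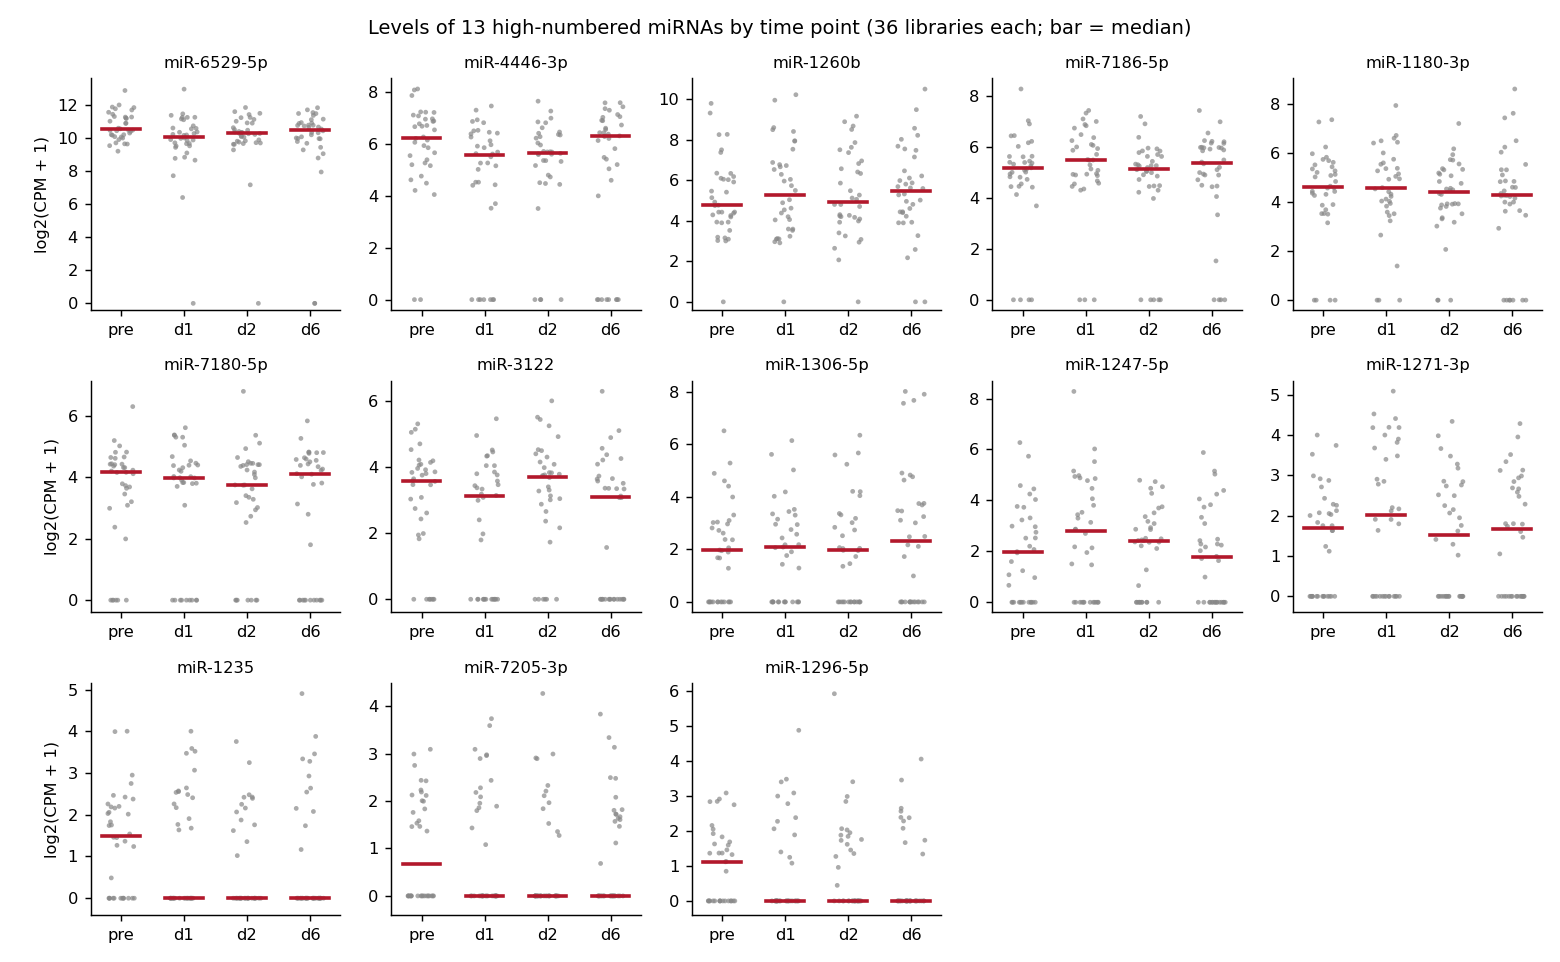
Level of the 13 tested high-numbered miRNAs as log2(CPM + 1) after TMM scaling, 1 point per library, with 36 libraries each from before irradiation (pre) and from day 1 (d1), day 2 (d2) and day 6 (d6), with the median as a red bar. Values overlap at all 4 times in every panel, and the less abundant miRNAs have many libraries at 0.

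The second question was how the level followed the radiation dose. Over the samples after irradiation (counts of days 1, 2 and 6 summed per animal, 36 animals), 4 of 13 members fell with dose and none rose by edgeR, where 9.66% of all miRNAs fell, 1.38% rose and 11% were called in either direction. miR-1260b had median levels of 94.5, 69.3, 51.6, 32.6, 53.1 and 30.8 CPM from 6.0 to 8.5 Gy, with a slope of -1.31 log2 units per Gy (SE 0.26, adjusted p = 0.000595). Its range was 18.8 to 1346 CPM at 6.0 Gy and 7.12 to 69.1 CPM at 8.5 Gy, so the groups overlapped at the low end. miR-1180-3p had medians of 47.9, 33.4, 28.9, 28.2, 22.7 and 17.3 CPM, a fall at each step, with a range of 13.6 to 363 CPM at 6.0 Gy and 8.81 to 36.2 CPM at 8.5 Gy. Its slope was -0.87 log2 units per Gy (SE 0.17, edgeR adjusted p = 0.000595).

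miR-1306-5p had medians of 13.5 CPM at 6.0 Gy (5.81 to 205) and 3.62 CPM at 8.5 Gy (0 to 9.57), with 1.85 CPM at 7.0 Gy as the lowest of the 6 doses. Its slope was -1.28 log2 units per Gy (SE 0.27, edgeR adjusted p = 0.00085). miR-1247-5p fell less evenly, from 8.47 CPM at 6.0 Gy (2.78 to 68.6) to 3.08 CPM at 8.0 Gy (1.65 to 8.45), and was at 6.90 CPM at 8.5 Gy (3.45 to 9.00). Its slope was -0.66 log2 units per Gy (SE 0.22, edgeR adjusted p = 0.0411). miR-6529-5p had a slope of 0.03 (SE 0.10, adjusted p = 0.896), so the abundant member showed no slope beyond its error.

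**Figure D4:**
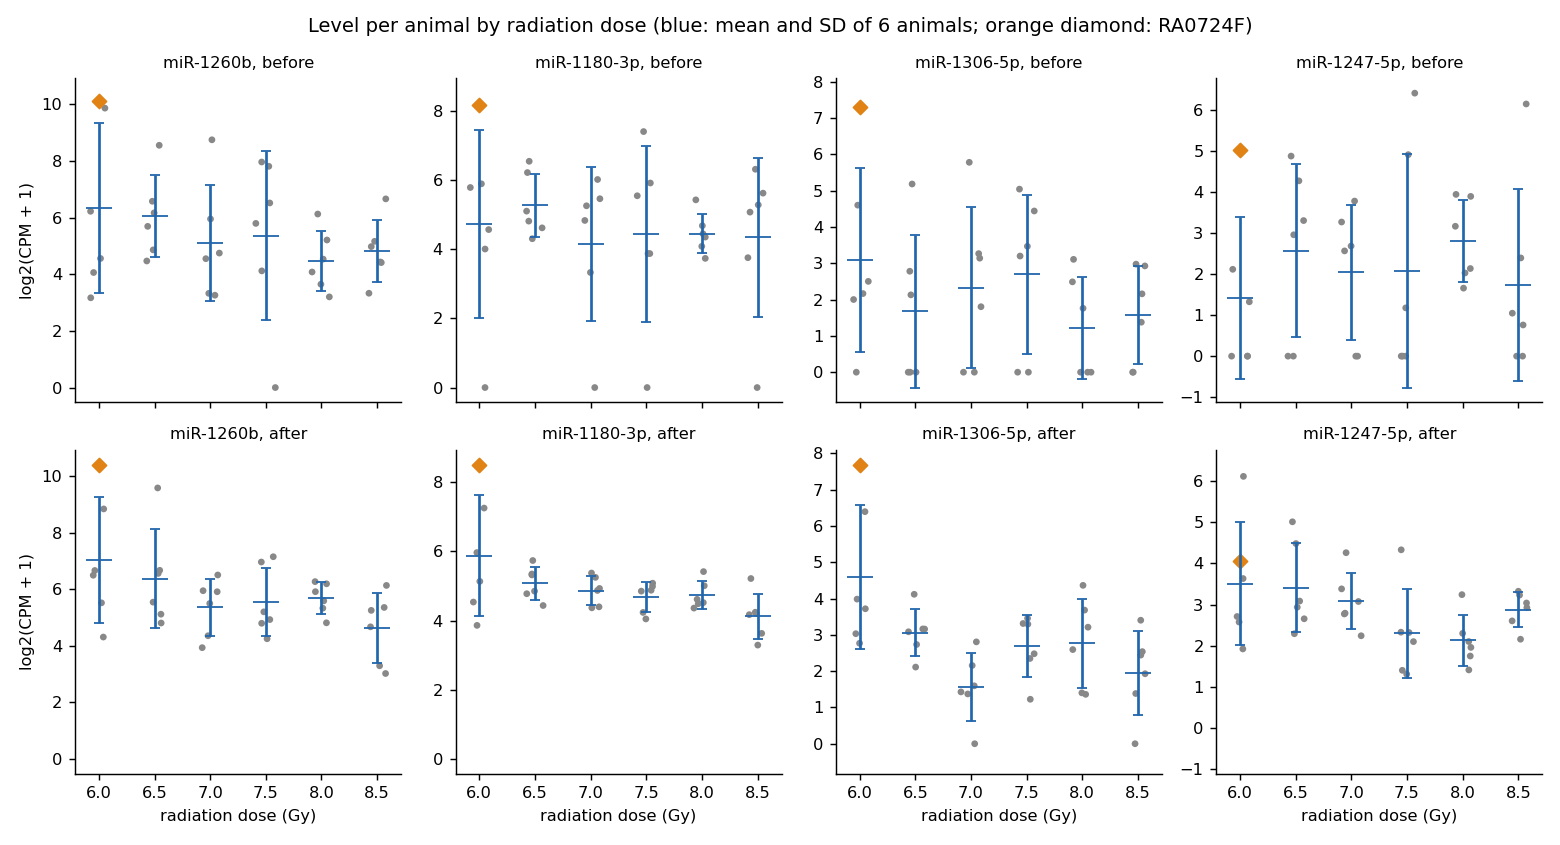
Level per animal, log2(CPM + 1) after TMM scaling, against radiation dose (Gy) before irradiation (top) and after it (bottom, days 1, 2 and 6 summed) for the 4 miRNAs called with dose; blue marks show the mean and SD of 6 animals and the orange diamond is RA0724F at 6.0 Gy. After irradiation the highest animals are at 6.0 Gy, RA0724F leads for 3 of the 4 miRNAs, and the doses overlap.

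RA0724F stood apart at 6.0 Gy. Its day 6 library was the largest of all, with 4118401 counts, and had the lowest TMM factor, 0.0907. It held 535 counts of miR-1260b, 145 of miR-1180-3p and 89 of miR-1306-5p, which were 1432, 388 and 238 CPM after TMM scaling and 130, 35.2 and 21.6 CPM of the plain library total. Without this animal miR-1260b (-0.95, edgeR adjusted p = 0.0339) and miR-1180-3p (-0.53, adjusted p = 0.0339) still fell, while miR-1306-5p (-0.72, adjusted p = 0.0879) and miR-1247-5p did not pass. miR-1247-5p also did not pass without RA2445M (-0.41, adjusted p = 0.262), nor without RA2116F, RA2118F, RA2267F, RA2475M, RA2596M, RA2689M or RA2694M.

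The slopes differed between scalings. Before irradiation all 4 also had slopes below 0 (miR-1260b -1.19, miR-1306-5p -0.80, miR-1180-3p -0.28, miR-1247-5p -0.13). The interaction of dose with period, given below, called none of them. With library totals in place of TMM, none of the 4 was called by edgeR (miR-1260b -0.42, SE 0.17, adjusted p = 0.271; miR-1306-5p -0.36, adjusted p = 0.361; miR-1180-3p -0.19, adjusted p = 0.445; miR-1247-5p -0.17, adjusted p = 0.645), nor was any of the 290 miRNAs. The median slope of all 290 moved from 0.02 to 0.27 between these scalings. Relative to it, miR-1260b had -1.33 under TMM and -0.69 under library totals, and miR-1180-3p had -0.89 and -0.45. The red-cell miRNAs miR-486-5p (-0.80, edgeR adjusted p = 0.00279) and miR-92a-3p (-0.90, adjusted p = 0.000701) also fell with dose after irradiation under TMM, while miR-16-5p (-0.11) and miR-451 (-0.12) did not pass. Before irradiation miR-92a-3p already fell with the later dose (-0.85, edgeR adjusted p = 0.0425), and miR-486-5p had -0.66 (adjusted p = 0.227). Red-cell miRNAs in sum had medians between 74.9% (7.0 Gy) and 87.4% (6.0 Gy) of counts, and their part in the slopes was not tested. The TMM factor of the summed samples after irradiation also differed by dose. From 6.0 to 8.5 Gy its medians were 0.827, 0.819, 1.24, 1.12, 1.21 and 1.43. Its lowest values were 0.0942 at 6.0 Gy and 0.236 at 6.5 Gy. Beyond the fits under the 2 scalings, the part of this factor in the slopes was not tested.

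In the samples drawn before any dose was given, no member was called (0.69% of all miRNAs were), 2 had an unadjusted p under 0.05 in edgeR (8.28% of all) and DESeq2 called 1. The slope of miR-1260b was -1.19 (SE 0.34, adjusted p = 0.0724), close to its value after irradiation. It passed when RA0529F, RA2576M, RA2580M, RA2691M, RA2740F or RA2742F was left out. miR-1306-5p had -0.80 (SE 0.38, adjusted p = 0.528), miR-3122 had 0.31 (SE 0.20, adjusted p = 0.762), and miR-1180-3p had -0.28 (SE 0.22, adjusted p = 0.764). For miR-1247-5p the slope was -0.13 (SE 0.40, edgeR adjusted p = 0.989). The change itself was tested as an interaction of dose with period (after or before irradiation), over all 144 libraries without an animal term. This interaction called no member and none of the 290 miRNAs (0%) by edgeR. No member had an unadjusted p under 0.05 (3.1% of all), and DESeq2 called none. The smallest p in edgeR was that of miR-1180-3p (-0.47, SE 0.26, edgeR adjusted p = 0.999), followed by miR-1235 (0.43, SE 0.36) and miR-1247-5p (-0.57, SE 0.50) at the same adjusted p.

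**Figure D5:**
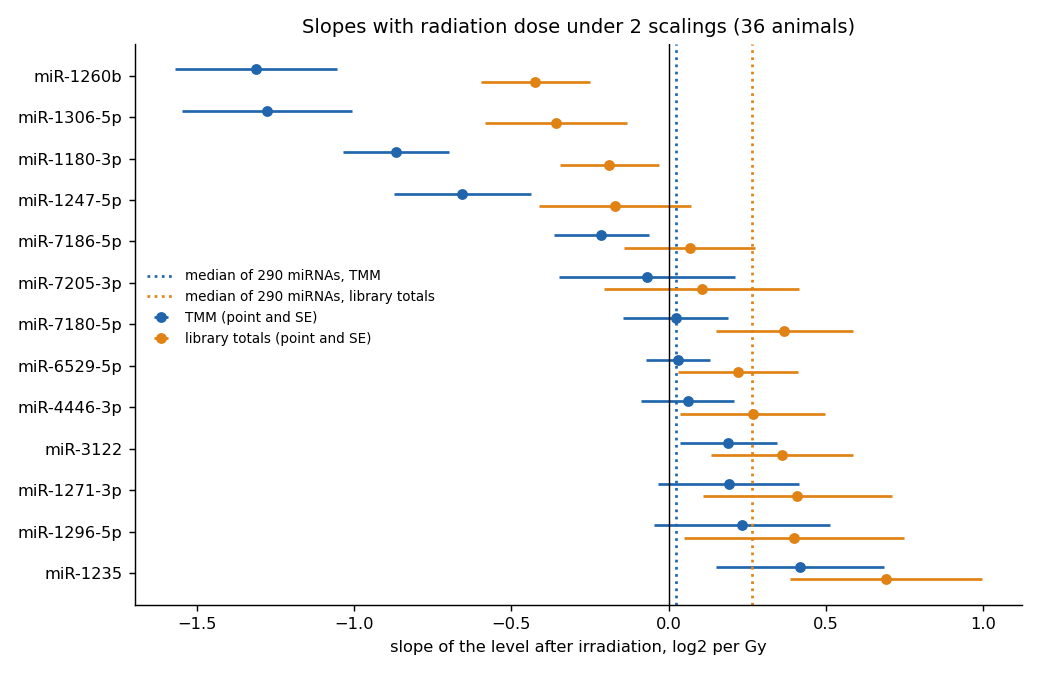
Slope of the level after irradiation with radiation dose (log2 per Gy, point and SE, 36 animals) for the 13 tested miRNAs under TMM scaling (blue) and library totals (orange); dotted lines are the median slope of all 290 miRNAs under each. The 4 miRNAs called under TMM keep the lowest slopes under library totals, where none is called.

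Between the sexes no member was called (0.345% of all miRNAs were) and DESeq2 called none, but 5 of 13 had an unadjusted p under 0.05 in edgeR, where 19.3% of all miRNAs did. miR-4446-3p had 56.9 to 294 CPM in the 17 females (median 115) and 21.5 to 156 CPM in the 19 males (median 76.2), a log2 difference of 0.81 (SE 0.23, adjusted p = 0.104). It was called without RA2685M (0.91, edgeR adjusted p = 0.0279), a fit that called 1.03% of all miRNAs. Lower in females were miR-1296-5p, with medians of 1.15 and 3.19 CPM (-1.10, SE 0.40, edgeR adjusted p = 0.217), and miR-1271-3p, with 3.85 and 6.96 CPM (-0.79, SE 0.31, adjusted p = 0.217), neither of which passed. Without the male RA2445M, 4 members were higher in females by edgeR, where 7.59% of all 290 miRNAs were. They were miR-1260b (1.94, adjusted p = 0.0253), miR-4446-3p (0.83, adjusted p = 0.0257), miR-1180-3p (1.21, adjusted p = 0.0338) and miR-1306-5p (1.98, adjusted p = 0.0345). The sexes were spread unevenly over the doses, with 1 male among 6 animals at 7.0 Gy and 1 female among 6 at 8.0 Gy. These fits held no dose term, and miR-1260b, miR-1180-3p and miR-1306-5p also fell with dose under TMM. The part of dose in the calls without RA2445M was not tested.

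No member was called between animals that died and survivors (0% of all miRNAs called by edgeR, no member at an unadjusted p under 0.05 against 4.48% of all, none by DESeq2). The log2 differences were above 0 for 12 of 13 members and for 181 of all 290 miRNAs (62.4%), with medians of 0.15 and 0.08. The smallest p values were those of miR-7180-5p (0.32, SE 0.22), miR-1260b (0.84, SE 0.58) and miR-7186-5p (0.24, SE 0.18), all at an edgeR adjusted p of 0.846. Whether the change after irradiation differed by sex or by survival was tested as an interaction over all 144 libraries, without an animal term. For sex no member was called (0.345% of all were; 1 unadjusted against 3.45% of all, none by DESeq2), with the smallest p for miR-7205-3p (-1.24, SE 0.59, edgeR adjusted p = 0.930). For survival none was called either (0% of all; none unadjusted against 4.48% of all, none by DESeq2), and the smallest p was that of miR-1247-5p (-1.63, SE 0.85, edgeR adjusted p = 0.986).

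The last comparison was between animals. With the 4 libraries of an animal as its replicates, 6 of 13 members differed between the 36 animals by edgeR, where 32.1% of all miRNAs did. They were miR-1260b (adjusted p = 3.91e-05), miR-1180-3p (0.00556), miR-1296-5p (0.00756), miR-1306-5p (0.00894), miR-1247-5p (0.0168) and miR-7205-3p (0.0209). Dose, sex and survival belong to the animal and enter these differences. The intraclass correlation, near 0 where libraries of 1 animal are hardly more alike than others, was low. In the same order it was 0.15, 0.05, 0.23, -0.001, 0.03 and 0.11. miR-1260b ran from 11.1 CPM in RA2116F over a median of 47.3 to 1353 CPM in RA0724F, 28.6 times the median. RA0724F also had the highest miR-1180-3p (364 CPM against a median of 29.8) and miR-1306-5p (205 against 5.57), and RA2445M, likewise at 6.0 Gy, had the highest miR-1247-5p (69.0 against 6.20). Of the 96 counts of miR-1306-5p in RA0724F 89 came from day 6, and of the 19 of miR-1247-5p in RA2445M 18 came from day 1. With library totals only miR-1296-5p was called (adjusted p = 0.00765), and without the libraries of a TMM factor under 0.25, an alternative added after seeing the data, 3 members were.

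A 4-way ANOVA of log2(CPM + 1) with RD, TSI, sex and survival as terms was run over the 144 libraries. Unadjusted p was under 0.05 in at least 1 term for 4 of 13 members, where 43.8% of all miRNAs did so. miR-1180-3p had 0.00864 for RD (14.8% of all miRNAs under 0.05), 0.028 for survival (9.31%) and 0.0141 for TSI by survival (8.97%). Sex gave 0.00881 for miR-7205-3p and 0.00606 for miR-1296-5p (3.79% of all). miR-6529-5p had 0.0114 for RD by sex (4.14%) and 0.0367 for RD by TSI by survival (8.62%), and miR-7205-3p had 0.0382 for TSI by sex by survival (6.21%). These p values were not adjusted and treat libraries of 1 animal as independent.

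Over the 144 libraries, which share animals and scaling, miR-1260b under TMM had a Pearson r of 0.67 with miR-92a-3p and 0.58 with miR-486-5p. With the other red-cell miRNAs compared, r was -0.08 for miR-451 and -0.38 for miR-16-5p, and with the log2 TMM factor it was -0.58. For miR-4446-3p r was -0.46 with both miR-486-5p and miR-92a-3p, 0.08 with miR-451 and 0.30 with miR-16-5p. Among the 78 pairs of tested members r had a median of 0.18 and was below 0 in 23. The most alike pairs were miR-7186-5p with miR-7180-5p (0.57) and miR-6529-5p with miR-4446-3p (0.55), and the least alike was miR-1260b with miR-3122 (-0.32). miR-1260b and miR-1306-5p, both falling with dose under TMM, had r = 0.42. These values are a description, since low counts and shared scaling enter every pair.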

How the data were processed

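Small RNA libraries (TruSeq kit, NextSeq) of 144 serum samples were counted by the authors against mature primate miRNAs of miRBase in the Genomics Workbench, and the deposited values are raw counts per miRNA, not normalized; the genome build is not given in the sources used here. No column of another sample was present. The members and lists were chosen with earlier results of these data known. Counts were tested with edgeR 4.0.16 (R 4.3.3; quasi-likelihood F test, TMM, Benjamini-Hochberg over 290 miRNAs counted in 40% of libraries or more). Levels are log2(CPM + 1). Slopes of the level with dose, and levels by sex and survival, used counts summed per animal. The interactions with dose, sex and survival used all 144 libraries without an animal term. DESeq2 1.42.0, other scalings, filters, covariates and each animal left out were alternatives. Scripts were tested on simulated data.

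Every tested member may be named; in each comparison the called members were described, or the 3 with the smallest p, and of the rare members the 10 with the largest totals, those with the largest share in 1 library, and listed ones with a count. Names beyond this were chosen after values were seen.

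Time comparisons were fitted without the animal. The labels pair the libraries of an animal. Deviations from the time means, correlated over all tested miRNAs, had a mean r of 0.0787 over 216 same-animal pairs and 0.00448 over 10080 others. This r does not measure how alike the libraries of an animal are for a single miRNA. With the animal as a block both day 1 calls were lost.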

Additional observations from a re-analysis of the deposited data

Results flagged for a closer look

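In 1 of 48 groups of 6 animals (the 4 miRNAs called with dose, at 6 doses, before and after irradiation), a single animal lay far from the rest, as chance alone gives in about 5% of groups. After irradiation at 7.5 Gy, miR-1247-5p had a level of 4.33 on the log2(CPM + 1) scale in RA2745F, against 2.33 in the next animal, a gap of 0.663 of the group's range. The value rests on 15 counts, 12 on day 1, 3 on day 2 and 0 on day 6.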

How the results depend on the processing

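Depth limits these results: in the median library 1 count is 3.57 CPM, above the median level of several members. Of the results outside leave-one-out, 154 kept their direction and call, 48 did not and none reversed; where no value shows the cause, the cause was not tested. On day 1 (2 members called), 1 was called with DESeq2's size factors, the 60% filter (9 members tested), without the 7 low libraries, with DESeq2, with a haemolysis covariate and without libraries of a TMM factor under 0.25, and 0 with library totals. With the animal as a replicate block 0 were called on day 1 (miR-1247-5p 1.15, miR-1271-3p 0.98), and the block changed no other call.

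Without the filter on low counts, 3 of 102 members were called on day 1 (3.99% of all 626 miRNAs), miR-1224-3p higher (1.96) and miR-7172-5p (-1.93) and miR-6529-3p (-1.11) lower, and neither miR-1247-5p nor miR-1271-3p. In the same way 3 were called on day 2 (2.72% of all), 7 on day 6 (8.15%), 1 for the change with dose (0.16%), 2 for the survival interaction (1.44%), 11 of 92 for the dose slope after irradiation (8.91%), 2 of 85 before it (1.79%), 1 between the sexes (1.6%) and 15 between animals (25.9%). The 60% filter gave 1 on day 6. Library totals gave 0 for the dose slope after irradiation and 1 between animals, and removing TMM factors under 0.25 gave 3 between animals. Before irradiation the dose slope had 1 called member with DESeq2 and with its size factors. A pseudocount of 10 gave 8 members in the ANOVA.

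Leaving out each animal gave 0 to 2 called on day 1, 0 to 1 on day 6, 2 to 4 for the dose slope after irradiation, 0 to 1 before it and 0 to 4 between the sexes. On day 1 neither member was called without RA2445M, RA2576M, RA2580M, RA2596M, RA2685M, RA2740F, RA2742F, RA2743F or RA2745F, both were without RA0456F, RA0521F, RA0529F, RA0724F, RA1782F, RA2265F, RA2318M, RA2475M, RA2597M, RA2598M or RA2700M, and miR-1247-5p alone when any other single animal of the remaining 16 was left out. Leaving out animals was not run between animals or for the ANOVA.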

Other observations

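With no filter on low counts, rare members were called that the tests above leave out. miR-1271-5p, which shares its seed with miR-96, was higher on day 2 (log2 fold change 1.82, edgeR adjusted p = 0.00773, 103 counts in 35 libraries). miR-1249 was higher on day 6 (2.53, edgeR adjusted p = 0.00456, 164 counts in 41 libraries). It also fell with dose after irradiation (-1.98 per Gy, edgeR adjusted p = 0.00215). The 43 counts from RA1782F on day 6, at 6.5 Gy, enter both fits. Of the 7 mirtrons with a count, miR-1224-3p (-1.77), miR-1226 (-1.39) and miR-1233 (-1.71) fell with dose after irradiation (edgeR adjusted p = 0.0204, 0.0381 and 0.0181). In that fit 7.92% of the 606 miRNAs fell. Their totals over all 144 libraries were 26, 54 and 38 counts. Of these, 1 of miR-1224-3p and 19 of miR-1233 came before irradiation, outside the fit. RA0724F on day 6 gave 9 counts of miR-1226, and RA1782F on day 6 (6.5 Gy) gave 7 of miR-1224-3p. The fit used TMM, and slopes without the filter were not run with library totals. The other mirtrons did not pass, with slopes of -1.22 for miR-1224-5p, -0.53 for miR-1234, 0.20 for miR-1240 and 0.37 for miR-1235. miR-1235 had the most counts (225 over all 144 libraries, 77 of them before irradiation). Other calls without the filter rested on as few as 4 counts in 1 library, as for miR-7167-5p.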
